A study of Mus musculus with 6 samples.

Results

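The miR-23, miR-27 and miR-24 miRNAs of epididymal white adipose tissue (WAT) were examined in wild type (Wt) mice and in mice overexpressing angiotensinogen (Agt), the precursor of angiotensin II, in adipose tissue (Agt Tg). The rows were chosen by name, as every arm listed for miR-23a, miR-23b, miR-27a, miR-27b and miR-24. This gave 11 of the 1983 rows of the deposited table. Of these, 9 were above the detection floor in at least 3 of the 6 libraries and were tested among 329 such rows of all miRNAs, while the other 2, miR-23b-5p and miR-24-1-5p, were at the floor in all 6 libraries.

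All mice were males of the C57BL6/J strain. The 3 Wt libraries came from mice without the transgene, and in the mice of the 3 Agt Tg libraries the expression of Agt was altered in adipose tissue under the aP2 promoter. The aP2 (Fabp4) promoter is active in adipocytes and can also be active in macrophages. The sample labels name a chow diet for both genotypes, whereas the methods of the study name a low fat diet, and no source used here gives the age. Numbered samples of a genotype were taken as separate mice, which no source used here states outright, so that p-values measure the spread between these 6 libraries. The libraries were made from whole tissue, in which fewer cells of a type and less miRNA per cell cannot be told apart. The totals lay between 6387766 and 10562634 reads. Values are log2 of reads per 10000000 reads of the library, and values under 10 had been raised to 10, a floor worth between 6.39 and 10.6 reads. The table carries human miRNA names, so each row counts mouse reads assigned to a human name.

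miR-23, miR-27 and miR-24 hairpins lie one after the other in a pair of gene clusters that arose by duplication, and each cluster is thought to be transcribed as 1 primary transcript. Each hairpin is cut into a 5p and a 3p arm, of which 1, the guide, is mostly kept in the silencing complex, and the other, the passenger, is mostly lost. miR-27 is known to block adipocyte differentiation through Pparg, the master transcription factor of fat cells, and miR-23, miR-27 and miR-24 are abundant in endothelial cells. The chromosome 8 cluster holds Mir23a, Mir27a and Mir24-2 (GRCm38, chr8:84208518-84208921, plus strand, 404 bases). In GENCODE M21 Mir23a and Mir27a lie in no other annotated gene, and the last 2 bases of Mir24-2 overlap the first exon of the lincRNA Gm26532. The chromosome 13 cluster holds Mir23b, Mir27b and Mir24-1 (chr13:63300484-63301275, plus strand, 792 bases). It lies within the aminopeptidase O gene (Aopep, 2010111I01Rik in GENCODE M21) on the same strand and within Fancc on the opposite strand. Mir23b is intronic there, whereas Mir27b and Mir24-1 lie within exons of some Aopep transcripts. The plot of the hairpins shows that the order of the genes is the same in both clusters and that Mir24-1 lies farther from Mir27b than Mir24-2 from Mir27a.

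**Figure D1:**
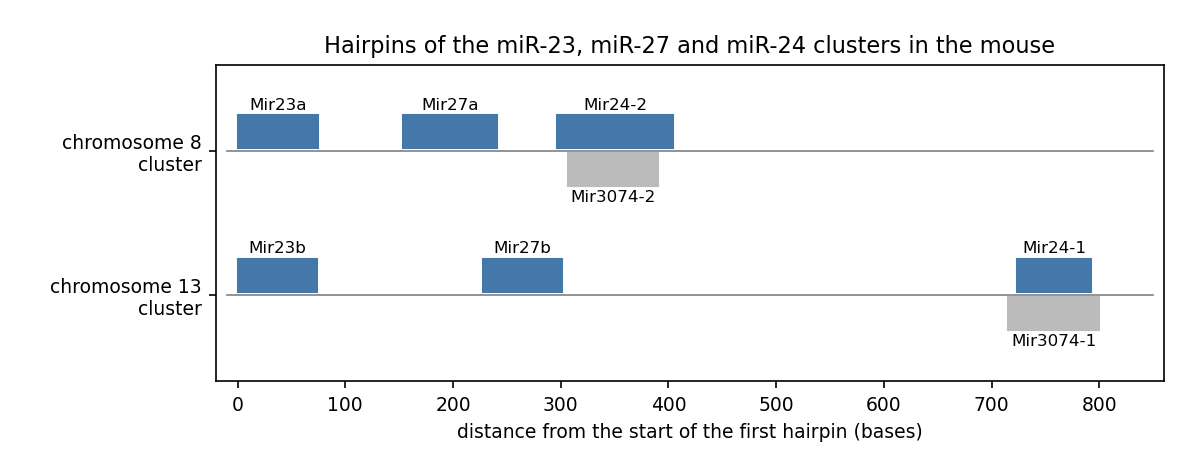
The hairpins of both clusters, drawn to scale as the distance in bases from the start of the first hairpin. Blue boxes are hairpins on the plus strand and grey boxes are Mir3074-2 and Mir3074-1 on the opposite strand. The chromosome 8 cluster spans 404 bases and the chromosome 13 cluster 792 bases.

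The mature sequences shown here, from RefSeq (GRCm38.p6), are those of the guide arms, since their seeds (bases 2 to 8, in capitals) decide which mRNAs they can pair with. Of the 11 arms, 10 matched an entry by name, and miR-23b-3p is named only.
miR-23a-3p: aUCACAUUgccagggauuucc
miR-27a-3p: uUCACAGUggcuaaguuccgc
miR-27b-3p: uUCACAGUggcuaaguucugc
miR-24-3p: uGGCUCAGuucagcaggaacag
miR-23a-3p lies at chr8:84208563-84208583, miR-27a-3p at chr8:84208727-84208747 and miR-27b-3p at chr13:63300760-63300780, all on the plus strand. miR-24-3p lies at both chr8:84208875-84208896 and chr13:63301251-63301272. miR-27a-3p and miR-27b-3p share their seed and differ at 1 of 21 bases, C19U (miR-27a-3p first, counted from 1 at the 5′ end). No source used here states how many mismatches were allowed, so the split of reads between miR-27a-3p and miR-27b-3p depends on a single base. How reads that could match both miR-23a-3p and miR-23b-3p were split is likewise not stated. The seeds of miR-23a-3p and miR-27a-3p also differ at 1 of 7 bases, U7G, so that the 2 families have different matches. miR-24-3p is encoded by both Mir24-2 and Mir24-1 with the same 22 bases, and its reads cannot be assigned to a cluster. Among 1679 mature mouse names searched, the seed of miR-27a-3p was found only in miR-27b-3p and that of miR-24-3p in 4 others (miR-5124b, miR-6369, miR-6410 and miR-6413).

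miR-27b-3p, from the chromosome 13 cluster, was the most abundant of the arms. It had 75690, 79258 and 61337 reads per 10000000 in Wt replicates 1, 2 and 3, and 98942, 54188 and 81499 in Agt Tg replicates 1, 2 and 3. The highest and the lowest of the 6 libraries were both Agt Tg. By its mean over the libraries it ranked 17 among the 329 miRNAs, and alone it made up 69.4% ± 5.39 (SD, n = 6) of the reads on the 9 arms. Its paralogue miR-27a-3p, from chromosome 8, had 9933, 8138 and 8730 reads per 10000000 in Wt and 9224, 7636 and 10340 in Agt Tg mice, ranked 51. The values of the 2 genotypes overlapped for both paralogues.

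miR-23a-3p had 14370, 10577 and 16535 reads per 10000000 in Wt and 13399, 15688 and 13356 in Agt Tg replicates 1, 2 and 3. Wt replicate 2 was the lowest library. miR-23b-3p had 4704, 6586 and 5712 in Wt and 5771, 6815 and 6458 in Agt Tg mice. Here the lowest library was Wt replicate 1, and the 3 Agt Tg values lay within or above the Wt range. miR-24-3p, which is encoded in both clusters, had 2869, 2143 and 3179 in Wt and 3023, 2583 and 2248 in Agt Tg mice. It was the least abundant guide arm. Its genotypes overlapped, with Wt replicate 2 lowest and Wt replicate 3 highest.

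The order miR-27b-3p, miR-23a-3p, miR-27a-3p, miR-23b-3p, miR-24-3p was found in 6 of 6 libraries, and for none of the 4 neighbouring pairs did the ranges over the libraries overlap. The closest neighbours were miR-23a-3p, whose lowest value was 10577, and miR-27a-3p, whose highest was 10340 reads per 10000000. The reads of each guide arm stand for whole mature miRNAs of 21 or 22 bases where RefSeq gives one, and no scaling by length was applied. Ligation and amplification depend on sequence, and levels of different miRNAs are read levels rather than molecule numbers. The chromosome 13 arms held 75.5% ± 4.64 of the cluster reads, the chromosome 8 arms 22.0% ± 4.17 and miR-24-3p 2.53% ± 0.540 (SD, n = 6). All 9 arms together made up 1.87% ± 0.171 of the reads on listed miRNAs in the Wt group, compared with 2.08% ± 0.385 in the Agt Tg group (SD, n = 3 each). The 3 Wt libraries lay between 1.68% and 2.0%, and the 3 Agt Tg libraries between 1.69% and 2.46%, so that the genotypes overlapped (exact permutation test, two-sided, p = 0.4, n = 3 each, where 3 against 3 cannot go below 0.1). The widest exact 95% binomial interval of a library's share was ± 0.0139 percentage points, which covers counting error only and was narrower than the spread between mice. Without Agt Tg replicate 1, the difference in share fell from 0.203 to 0.0130 percentage points, and without Agt Tg replicate 2 it was 0.398.

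**Figure D2:**
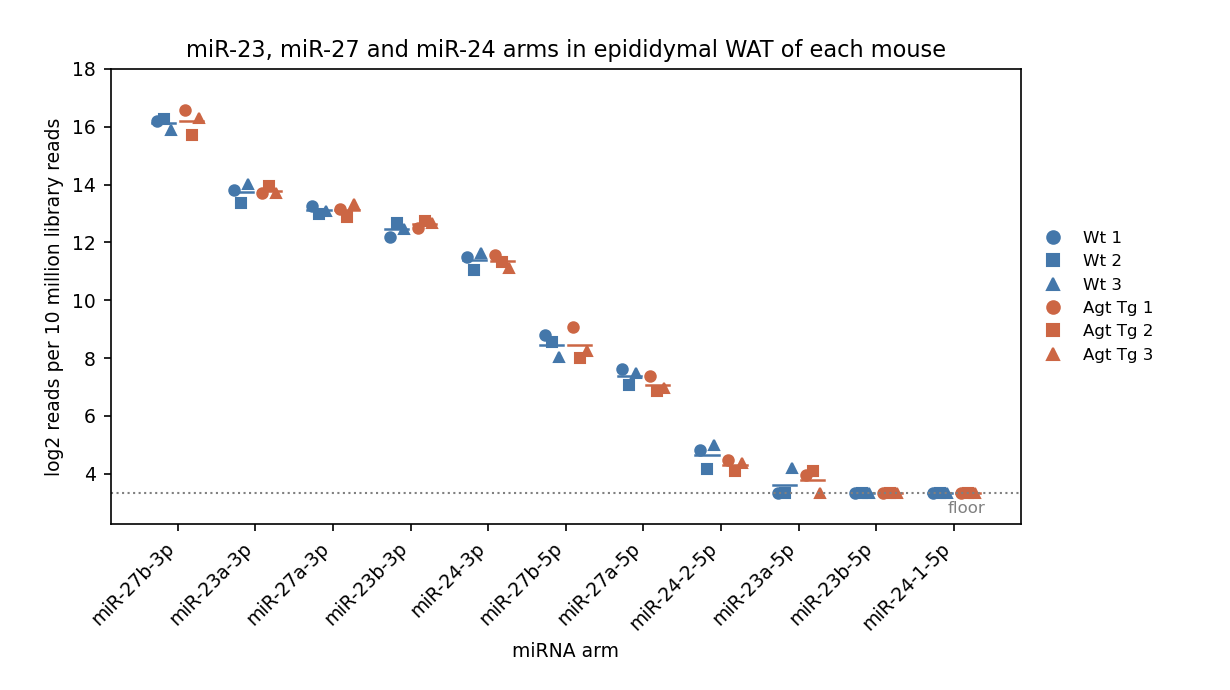
Level of each arm in each library, as log2 of reads per 10000000 library reads on the vertical axis, with Wt in blue, Agt Tg in orange, replicates by shape, bars at the genotype means and the floor as a dotted line. The 5 guide arms lie between 11.07 and 16.59 and the genotypes overlap in each, while miR-23b-5p and miR-24-1-5p are at the floor in all 6 libraries.

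The first comparison asked whether Agt overexpression in WAT went with a different level of each arm. No arm passed the test. In the limma fit over all 329 miRNAs, 0 of the 9 arms reached the threshold (unadjusted p up to 0.05 and a log2 fold change of 1 or more either way), against 4.86% of all miRNAs tested (16 of 329, of which 9 were higher and 7 lower, or 10 and 5 under TMM scaling, which scales libraries by the bulk of the miRNAs). Without the fold requirement 0 arms passed as well, with limma and with limma-voom. With Benjamini-Hochberg adjustment limma left 0 of all 329 miRNAs at an adjusted p under 0.05 (30 at unadjusted p up to 0.05), and limma-voom likewise 0 (32 unadjusted). The groups did not overlap in 0 of the 9 arms, compared with 17.6% of all miRNAs (58 of 329).

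The estimates for the guide arms were small, and their intervals bound the size of a difference. The log2 fold change (Agt Tg minus Wt, limma with standard error) was 0.17 ± 0.20 for miR-23b-3p, with a 95% interval from −0.30 to 0.64 (adjusted p = 0.710). It was 0.08 ± 0.25 for miR-27b-3p, with an interval from −0.51 to 0.67 (adjusted p = 0.878). These upper bounds were the highest of the guide arms. For miR-23a-3p it was 0.053 ± 0.22, from −0.45 to 0.56 (adjusted p = 0.898), and for miR-27a-3p 0.015 ± 0.19, from −0.44 to 0.47 (adjusted p = 0.965). miR-24-3p had −0.052 ± 0.23, from −0.60 to 0.50 (adjusted p = 0.903). Without Wt replicate 2, which stands apart in other miRNAs, the values of miR-23a-3p and miR-27a-3p turned to −0.13 and −0.050. Over the 5 guide arms the intervals ran from −0.60 to 0.67, that is from a 1.52-fold lower to a 1.59-fold higher level in Agt Tg mice. All 5 intervals include 0, which does not show that the levels were equal.

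The passenger arms had fewer reads and wider intervals. The log2 fold change was −0.33 ± 0.29 for miR-27a-5p, with an interval from −1.03 to 0.36 (adjusted p = 0.665), the smallest p of the 9 arms. It was −0.33 ± 0.33 for miR-24-2-5p (adjusted p = 0.679), −0.021 ± 0.37 for miR-27b-5p and 0.18 ± 0.38 for miR-23a-5p, which was at the floor in 3 libraries. The median over the 9 arms was 0.015, while the median over all 329 miRNAs was −0.19 on the deposited values and −0.06 under TMM scaling. Relative to the median of all miRNAs the guide arms lay between 0.14 and 0.36. The signs of miR-24-3p and miR-27b-5p changed to positive under TMM scaling (0.075 and 0.11), and no direction is read from them.

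**Figure D3:**
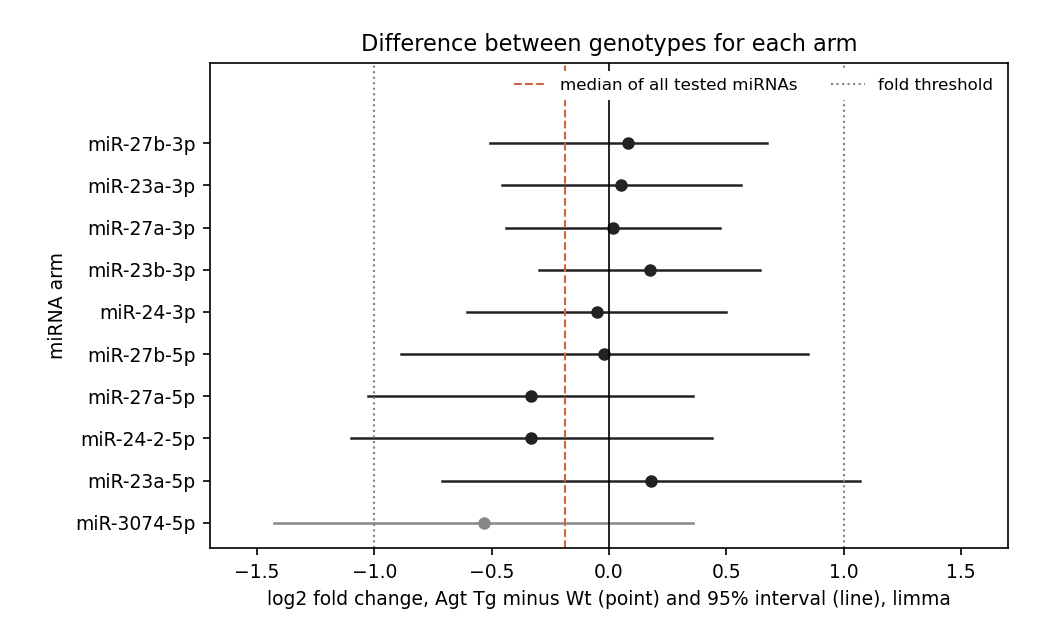
Log2 fold change (Agt Tg minus Wt) of each tested arm on the horizontal axis, points for the limma estimate and lines for its 95% interval, with dotted lines at the fold threshold and a dashed line at the median of all 329 miRNAs. The grey point is miR-3074-5p, encoded opposite miR-24. All intervals include 0, and those of the 5 guide arms lie inside the fold threshold.

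The second comparison set the paralogues against each other within each library, where scaling between libraries cancels. In miR-27, the row of the chromosome 13 copy held more reads. The ratio of miR-27b-3p to miR-27a-3p was 7.62, 9.74 and 7.03 in Wt and 10.7, 7.10 and 7.88 in Agt Tg replicates 1, 2 and 3. In miR-23, the row of the chromosome 8 copy held more reads instead. The ratio of miR-23a-3p to miR-23b-3p was 3.05, 1.61 and 2.89 in Wt and 2.32, 2.3 and 2.07 in Agt Tg mice. Both ratios were above 1 in 6 of 6 libraries, as the reads were assigned by the authors, and a different rule for reads that match both paralogues could change them. Within the chromosome 13 cluster, miR-27b-3p exceeded miR-23b-3p by 7.95 to 17.1 times, while within the chromosome 8 cluster miR-23a-3p exceeded miR-27a-3p by 1.29 to 2.05 times.

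The values of the genotypes overlapped in both paralogue ratios, which does not show that the ratios were equal. The exact permutation test of 3 against 3 libraries cannot go below p = 0.1. The log2 ratio of miR-27b-3p to miR-27a-3p averaged 3.01 ± 0.25 for Wt and 3.08 ± 0.31 for Agt Tg mice (SD, n = 3 each, exact permutation test, two-sided, p = 0.6). The log2 ratio of miR-23a-3p to miR-23b-3p averaged 1.28 ± 0.51 for Wt and 1.16 ± 0.09 for Agt Tg mice (SD, n = 3 each, exact permutation test, p = 0.8). The wide spread in Wt came with 1 library, Wt replicate 2, at 0.68 against 1.61 and 1.53. Without it the Wt mean was 1.57, the difference grew from −0.12 to −0.42, and the 3 Agt Tg ratios were all below the 2 remaining Wt ratios (p = 0.1 by exact permutation, the lowest value that this design can give). Wt replicate 2 also stood apart in miRNAs of other tissues. The summed level of 7 miRNAs of epididymis, testis and epithelium was 138001 reads per 10000000 there and between 1010 and 1643 in the other libraries. Its part in the miR-23 ratio was not tested. With 11 ratios and shares compared, the smallest Benjamini-Hochberg adjusted p was 0.825.

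The passenger arms differ in sequence between hairpins whose guides are the same (miR-24) or nearly the same (miR-27). They are shown here because miR-24-2-5p, unlike miR-24-3p, belongs to 1 gene, and their seeds differ from those of the guides.
miR-27b-5p: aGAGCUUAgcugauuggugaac
miR-27a-5p: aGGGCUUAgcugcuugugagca
miR-24-2-5p: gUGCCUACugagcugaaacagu
miR-24-1-5p: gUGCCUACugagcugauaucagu
These are mouse sequences, whereas the rows carry human names, and how reads of an arm that differs between the species were counted was not tested. miR-27b-5p had 441, 378 and 262 reads per 10000000 in Wt and 540, 257 and 301 in Agt Tg replicates 1, 2 and 3. Agt Tg replicate 1 was highest and Agt Tg replicate 2 lowest, as for miR-27b-3p. miR-27a-5p had 198, 135 and 177 in Wt and 165, 116 and 124 in Agt Tg mice, so that the chromosome 13 copy was also the higher in the passenger arm, by 1.48 to 3.27 times. The genotypes overlapped in both passenger arms.

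miR-24-2-5p, the passenger of the chromosome 8 copy of miR-24, had 21, 14 and 31 reads in the Wt libraries, against 23, 11 and 22 in the transgenic ones (replicates 1, 2 and 3). It overlapped between the genotypes and was above the floor in 6 of 6 libraries. miR-24-1-5p, its counterpart on chromosome 13, was at the floor in all 6. A value at the floor can stand for any number of reads up to a limit of 6.39 to 10.6, depending on the library. miR-23a-5p had 18 reads in Wt replicate 3, 16 in Agt Tg replicate 1 and 11 in Agt Tg replicate 2, and was at the floor elsewhere, while miR-23b-5p was at the floor in all libraries. Thus 3 passenger arms of the chromosome 8 cluster and 1 of the chromosome 13 cluster were seen above the floor in at least 3 libraries.

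Arm preference was strong in each hairpin that could be measured. The guide exceeded the passenger by 172 to 271 times in miR-27b, with 172, 210 and 234 in Wt and 183, 211 and 271 in Agt Tg mice. In miR-27a it was weaker, with 50.2, 60.2 and 49.3 in Wt and 55.9, 65.9 and 83.4 in Agt Tg mice, and the ranges of the 2 hairpins did not overlap. This comparison depends on how reads were split between miR-27a-3p and miR-27b-3p, which is not stated. The log2 ratio of miR-27a-3p to miR-27a-5p averaged 5.73 ± 0.16 for Wt and 6.08 ± 0.29 for Agt Tg mice (SD, n = 3 each, exact permutation test, two-sided, p = 0.2), and that of miR-27b 7.67 ± 0.23 and 7.77 ± 0.29 (p = 0.6, exact permutation test). miR-24-3p exceeded miR-24-2-5p by 101 to 150 times, a ratio that includes any miR-24-3p made from the other cluster. The mean log2 ratios were 6.75 ± 0.14 for Wt and 7.02 ± 0.24 for Agt Tg mice (SD, n = 3 each, exact permutation test, p = 0.2). miR-23b-3p was at least 470-fold higher than miR-23b-5p in each library, against the floor of 10 per 10000000. miR-23a-3p exceeded miR-23a-5p by 902, 868 and 911 times in Wt replicate 3 and Agt Tg replicates 1 and 2. In the other 3 libraries, with the passenger at the floor, it was at least 1437-fold (Wt replicate 1), 1058-fold (Wt replicate 2) and 1336-fold higher (Agt Tg replicate 3). The log2 ratio of miR-24-3p to the mean of the other 4 guide arms averaged −2.46 ± 0.27 for Wt and −2.60 ± 0.24 for Agt Tg mice (SD, n = 3 each, exact permutation test, p = 0.5).

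**Figure D4:**
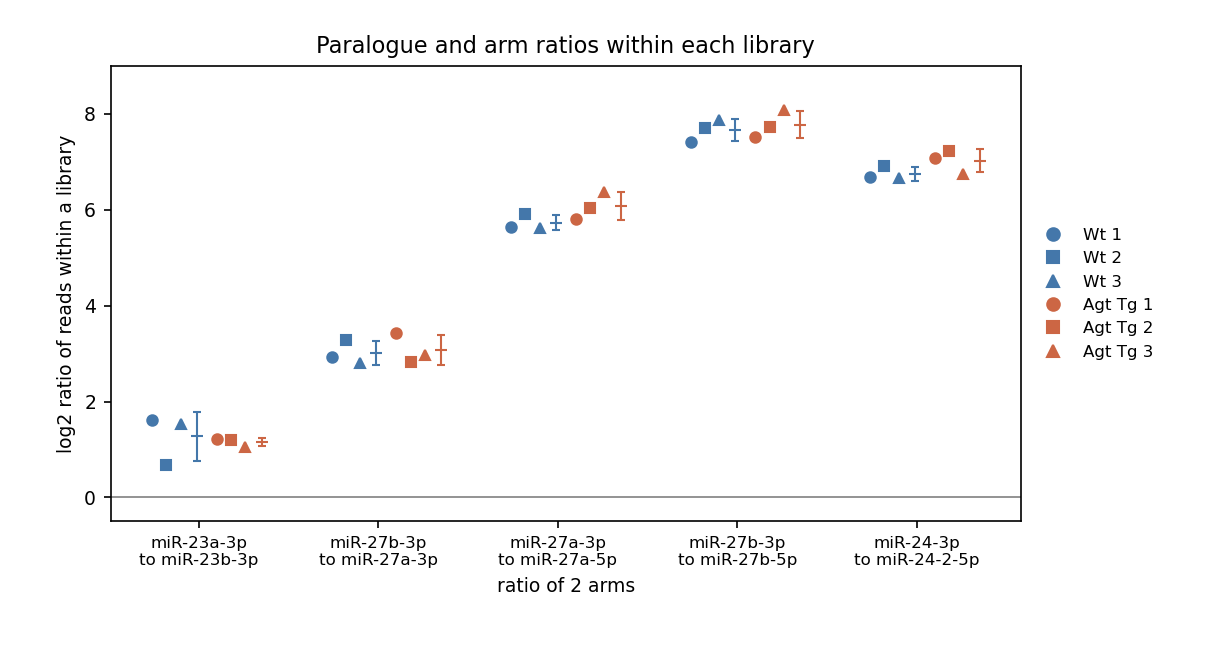
Log2 ratio of reads of 2 arms within each library, with Wt in blue, Agt Tg in orange, replicates by shape and bars for mean ± SD (n = 3). The genotypes overlap in each of the 5 ratios, and Wt replicate 2 is the lowest point for miR-23a-3p to miR-23b-3p, at 0.68.

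Both miR-24 genes overlap a miRNA gene on the opposite strand, Mir3074-2 and Mir3074-1. The mature miR-3074-5p is shown because 20 of its 22 bases lie opposite miR-24-3p at both loci.
miR-3074-5p: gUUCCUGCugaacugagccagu
miR-3074-5p was near the floor, with 23, 19 and 21 reads in Wt and 25, 7 and 21 in Agt Tg replicates 1, 2 and 3, and its log2 fold change was −0.53 ± 0.38 (limma, adjusted p = 0.587). miR-3074-3p was at the floor in all 6 libraries.

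The seed match of miR-27 was searched in the 3′ UTRs of 13 genes, Agt and 12 genes of fat cells (GENCODE M21, the longest 3′ UTR of each gene, sense strand), to show where the most abundant seed of the clusters could pair. The motif ACTGTGA (bases 2 to 8 of miR-27) was present in 4 of the 13 genes, Pparg, Rxra, Phb and Lpl. The site in Pparg lies at bases 88 to 94 of a 3′ UTR of 204 bases (GRCm38, chr6:115490283-115490289, plus strand), and that in Phb, which encodes prohibitin, at bases 67 to 73 of 867 (chr11:95679973-95679979, plus strand). The motif is in capitals.
Pparg: agaaatttACTGTGAaaaagcat
Phb: agaaaatcACTGTGAaatttcat
Of the 3′ UTRs within 20% of the length of that of Pparg, 2.47% held ACTGTGA. The share was 11.4% for lengths like that of Phb, 26.0% for Lpl and 31.9% for Rxra, whose 3′ UTRs are longer (2428 and 3269 bases). The match of miR-23a-3p, AATGTGA, was present in 2 of the 13 genes and that of miR-24, CTGAGCC, in 4, and neither was in Pparg. Agt held 0 of the 3 motifs. Of all 21020 3′ UTRs, 16.0% held the match of miR-27, 15.1% that of miR-23a-3p and 16.2% that of miR-24. These are matches of letters, and neither binding nor mRNA was measured here.

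Over the 6 libraries, the 3 other miRNAs whose log2 values followed the mean of the 5 guide arms most closely were miR-4450 (Pearson r = 0.95), miR-6087 (r = 0.93) and miR-125a-5p (r = 0.86). The points share their library and its depth. The mean of the guide arms itself ranged only from 13.28 in Wt replicate 2 to 13.51 in Agt Tg replicate 1.

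Other miRNAs known to act on fat cell formation were counted in 2 lists. Of 12 tested inhibitors (let-7 members, miR-130a-3p, miR-130b-3p, miR-31-5p and miR-138-5p), 0 were at the threshold in either direction, with a median log2 fold change of −0.03, and miR-155-5p was at the floor in all libraries. Of 14 tested promoters, such as miR-143-3p and miR-103a-3p, 0 were at the threshold, with a median of −0.19. Over all miRNAs the median was −0.19 and 4.86% were at the threshold. The lists of cell type markers also had 0 members at the threshold. All 5 leukocyte and all 3 fibroblast miRNAs had lower means in Agt Tg libraries. So had the 1 muscle and all 6 epididymis, testis and epithelium miRNAs tested. Higher means were found in all 3 erythroid, 2 of 4 endothelial and 3 of 4 adipose tissue miRNAs. Lower means were also the more common direction over all 329 miRNAs, whose median was −0.19 (−0.06 under TMM scaling). No shift of a cell type is read from these counts. Groups did not overlap in 1 of the 5 leukocyte miRNAs and in 1 of the 14 promoters. Over all miRNAs this share was 17.6% (58 of 329). Of the fibroblast miRNAs, miR-214-3p alone was at an unadjusted p up to 0.05 in limma. Its log2 fold change was −0.73 ± 0.30 (limma, adjusted p = 0.522). The medians were −0.24 for 4 endothelial, −0.56 for 5 leukocyte, 0.29 for 3 erythroid, −0.55 for 3 fibroblast, −0.51 for 1 muscle and −2.42 for 6 epididymis, testis and epithelium miRNAs. Wt replicate 2 was the highest library in the summed levels of the last 3 of these lists. It was also the highest for the listed inhibitors, at 721490 reads per 10000000 against 366271 to 584406 in the others. For the erythroid miRNAs it was the lowest, at 50577 against 92377 to 207397. The fibroblast sum was 43205 reads per 10000000 there and between 14509 and 28631 in the others, the muscle sum 1699 against 485 to 651, and the epididymis sum 138001 against 1010 to 1643. Of 5 miRNAs of adipose tissue, 4 were tested, with a median of 0.13, and miR-193b-3p was at the floor in all libraries. The summed level of the endothelial miRNAs, 4 of 4 above the floor, ranged from 82062 to 104628 reads per 10000000 in Wt and from 90523 to 122462 in Agt Tg mice, so that the genotypes overlapped. That of the 5 leukocyte miRNAs ranged from 43542 to 45839 in Wt and from 29350 to 44217 in Agt Tg mice, and its part in the levels of the clusters was not tested.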

How the data were processed

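Small RNA sequencing of epididymal WAT was analysed in 3 Wt and 3 Agt Tg libraries, grouped by the genotype in the labels. The authors checked reads with FastQC, mapped them to miRBase precursors and kept those on mature miRNAs. Neither a miRBase release nor a mismatch limit is stated there. The deposited table holds log2 reads scaled by the authors to 10000000 per library, and values under 10 were raised to 10. Above this floor, 1924 of 1924 values were whole reads within 0.02 reads, which gave the totals. Every column was tied to a sample. The 329 rows that exceeded the floor in 3 or more libraries were compared with limma 3.58.1 in R 4.3.3 (variance trend, genotype only). The same fit was also run on simulated data with known, large fold changes. Ratios used exact permutation tests in Python 3.11.15. Replicate pairs differed by more than sampling noise. 0 of the 9 tested arms shared all values with another row.

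The arms, 2 lists of adipogenesis miRNAs, 7 lists of markers, and the 3 miRNAs most like the mean of the guides were set out with earlier results of these data known. Ratios between miR-23 and miR-27 and of miR-27b-5p to miR-27a-5p, and the 13 genes searched, were added after the values were seen. The alternatives were log2(value + 1), TMM scaling (coded from its definition), scaling to miR-191-5p, limma-voom, other filters, no fold threshold, a replicate block and leaving out each library. The study's gene expression arrays were not analysed here.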

Additional observations from a re-analysis of the deposited data

How the results depend on the processing

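The count of cluster arms at the threshold was 0 under each alternative. The fold changes of the 9 arms lay between −0.58 and 0.47 over 115 alternative values, the smallest unadjusted p was 0.0855 and the smallest adjusted p 0.377 (limma). The count over all miRNAs, 16, was 3 with a stricter filter on the mean level (209 tested, which left out miR-23a-5p and miR-24-2-5p), 30 with no fold threshold, and between 12 and 35 with 1 library left out (35 without Agt Tg replicate 1). The sign of miR-24-3p turned under TMM scaling (0.075) and limma-voom (0.072), and that of miR-27b-5p too (0.11 and 0.13). With 1 library left out, log2 fold changes ranged from −0.13 to 0.19 for miR-23a-3p, from −0.085 to 0.13 for miR-27a-3p, from −0.11 to 0.33 for miR-27b-3p, from −0.22 to 0.068 for miR-24-3p and from −0.34 to 0.20 for miR-27b-5p, so that these signs depend on single mice. Differences in log2 ratio ranged from −0.42 to 0.047 for miR-23a-3p to miR-23b-3p, from −0.11 to 0.20 for miR-27b-3p to miR-27a-3p, from −0.050 to 0.23 for miR-27b-3p to miR-27b-5p, from −0.32 to 0.060 for miR-23a-3p to miR-23a-5p (a ratio that is only a lower bound in the 3 libraries with miR-23a-5p at the floor, so that no difference is read from it), from −0.28 to 0.0034 for miR-24-3p to the other guides, from −0.16 to 0.19 for miR-23a-3p to miR-27a-3p and from −0.35 to 0.20 for miR-27b-3p to miR-23b-3p. The cause was not tested. The replicate numbers gave no sign of a pairing of the mice (correlations of deviations 0.22, −0.18 and −0.21), which cannot exclude one. With the replicate block 17 miRNAs and 0 arms were at the threshold. Depth limits miR-23a-5p and miR-24-2-5p, which had at most 31 reads.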
